A study of Mus musculus with 8 samples.

Results

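The regions described here are stretches of acetylated chromatin that cover the facing ends of neighbouring genes. From the RefSeq gene table of the mouse (GRCm38.p6, the same build as mm10), all pairs of protein-coding genes on chromosomes 1 to 19 were taken whose spans do not overlap and whose facing ends lie within 1 kb. Peaks of histone H3 acetylated at lysine 27 (H3K27ac) from 4 deposited peak lists were merged where they overlapped or touched. A merged region under 20 kb wide that overlapped both facing ends of a pair is called a facing-end region. There were 1046 such regions among 44745 merged regions under 20 kb, and among 45096 of any width on these chromosomes. They held 1118 of the 2014 facing pairs in the gene table, 67 of them with a gene known only by a gene-model symbol, and no filter on peak height was applied.

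The libraries came from clone 11 of mpkCCD, an established line of mouse cortical collecting duct cells, with no genetic change named in the labels. Cells grown to confluence on permeable supports were kept without serum and hormones and then received 0.1 nM dDAVP, a vasopressin analogue selective for the V2 receptor, or its vehicle, for 24 h. Each treatment had 1 immunoprecipitated library and 1 input library in each of 2 experiments. The line is 1 clone, and nothing in the labels says whether the experiments used separate thaws, so spread between experiments may be partly technical. The study asked which acetylated regions change with vasopressin.

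H3K27ac is placed on nucleosomes around active promoters and enhancers by the acetyltransferases p300 and CBP. Genes whose starts face each other across a short stretch of DNA can share that stretch as a bidirectional promoter, an arrangement common among housekeeping genes for DNA repair, mitochondria and RNA handling. Such promoters are typically rich in CpG and poor in TATA boxes. Where a stop faces a start (a tandem pair) only 1 promoter lies in the gap, and where stops face each other there is none from these genes.

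The sequences between some well-known pairs with facing starts are shown because they are the DNA that each acetylated region brackets. They are RefSeq sequence of GRCm38.p6, plus strand, 5′ to 3′, and hold only bases that lie between the gene spans. Capitals mark matches on either strand to 7 short motifs, searched as exact letters. Ets factors and GABP are known for the letters CCGGAAG, while the factor NRF1 was searched as GCATGCG. The factor NF-Y is known for the box CCAAT, while YY1 was searched with the letters AAGATGG. The cAMP response element (CRE) was searched as its palindrome TGACGTCA, while for the Sp and KLF factors the letters were GGGCGG. The TATA box was searched as TATAAA.
Brca1-Nbr1, chr11:101551956-101552106: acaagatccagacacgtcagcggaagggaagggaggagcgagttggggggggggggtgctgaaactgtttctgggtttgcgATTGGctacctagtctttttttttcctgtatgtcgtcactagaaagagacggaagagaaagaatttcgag
Gart-Son, the 250 bases before Son, chr16:91647574-91647823: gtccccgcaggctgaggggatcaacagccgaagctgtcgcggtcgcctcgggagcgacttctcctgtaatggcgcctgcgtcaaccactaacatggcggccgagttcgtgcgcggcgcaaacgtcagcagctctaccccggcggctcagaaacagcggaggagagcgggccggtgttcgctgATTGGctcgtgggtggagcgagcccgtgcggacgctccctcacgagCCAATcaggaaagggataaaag
Ranbp1-Trmt2a, chr16:18248695-18248846: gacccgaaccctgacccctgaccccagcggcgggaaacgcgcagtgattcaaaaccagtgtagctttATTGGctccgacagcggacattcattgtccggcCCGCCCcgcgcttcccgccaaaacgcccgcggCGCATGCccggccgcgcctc
Wrap53-Trp53, chr11:69580251-69580347: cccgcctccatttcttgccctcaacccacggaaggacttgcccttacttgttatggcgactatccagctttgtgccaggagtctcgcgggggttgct
Rad51c-Tex14, chr11:87404955-87405012: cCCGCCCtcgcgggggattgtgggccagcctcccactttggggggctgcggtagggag
Aimp2-Pms2, chr5:143909840-143909900: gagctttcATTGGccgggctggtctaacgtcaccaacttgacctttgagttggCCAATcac

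The 250 bases before Son held 28 CpG dinucleotides and 64.8% GC, while the 151 bases between Brca1 and Nbr1 held 7 CpG and 50.3% GC. A CCAAT match was found in 4 of these 6 stretches, and none of the 7 motifs was found between Wrap53 and Trp53. A match is a string of letters and was not tested for binding.

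In the 4 lists, 27923780 to 32705755 immunoprecipitated tags had been kept, and 19838 to 39202 peaks lay on chromosomes 1 to 19. The dDAVP list of experiment 2 was the shortest, with 33.3 Mb covered against 56.3 Mb for its vehicle list, and both lists of experiment 1 were longer, with 98.2 Mb and 103 Mb. Values per list are given below in the order dDAVP and vehicle of experiment 1, then dDAVP and vehicle of experiment 2. Ends of 6 of 6 collecting duct marker genes on these chromosomes (Aqp2, Aqp3, Scnn1a, Gata3, Elf3 and Cdh16) were called in all 4 lists. The same held for 0 of 4 fibroblast, 1 of 3 leukocyte (Cd68) and 0 of 2 endothelial marker genes. Avpr2, the V2 receptor gene, was also on the collecting duct marker list but was not among the genes counted on chromosomes 1 to 19. The share of all genes with an end called in all 4 lists was not taken.

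Acetylation at gene ends depended on which end faced which. For 565 pairs whose starts face each other, a facing-end region covered 520 pairs, or 92.04% (95% Wilson interval 89.5 to 94.0). For 448 tandem pairs the share was 54.0% (49.4 to 58.6), and for 422 pairs of facing stops it was 16.1% (12.9 to 19.9). The strand of at least 1 gene was not given for 579 pairs, of which 49.7% (45.7 to 53.8) lay in a region. All intervals in this text cover counting error only, and pairs are not independent replicates.

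Per list, the midpoint between the genes was covered by a peak for 92.7%, 92.9%, 84.6% and 90.6% of all facing-start pairs. For tandem pairs the midpoint was covered in 59.2%, 60.0%, 37.5% and 47.5%. Facing stops had 18.7%, 17.3%, 2.13% and 3.55%. Facing starts were the highest class and facing stops the lowest in each of the 4 lists, and the ranges of the 3 classes over lists did not overlap. The difference between facing starts and facing stops was 79.8 ± 6.08 percentage points (SD, n = 4 libraries), and it had the same sign in 4 of 4. An exact sign-flip permutation test over the 4 libraries gave p = 0.125, two-sided, the smallest value that 4 libraries allow. In the main settings, 21 differences were tested with this exact test, each with the same sign in 4 of 4 libraries. Each had an exact p = 0.125 before and after Benjamini-Hochberg adjustment, so none could pass 0.05 in this design. The test was also run in alternative settings outside this count, where the sign was not always the same in every library.

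**Figure D1:**
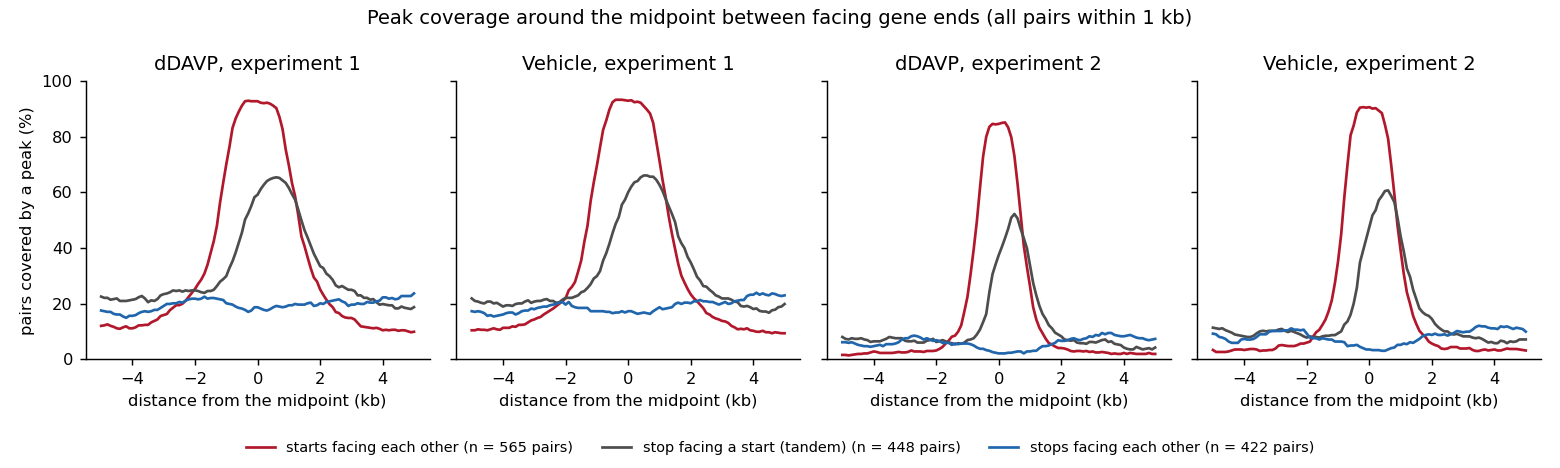
Share of all facing pairs within 1 kb (y axis, percent) that a peak covered at each distance from the midpoint between the genes (x axis, kb), with 1 panel per peak list and 1 line per class. Tandem pairs are turned so that the gene that starts lies to the right. Facing starts form a plateau around 0 of 84.6% to 92.9%, tandem pairs peak 500 to 600 bp to the right, and facing stops have no peak at 0, where their coverage in experiment 2 (2.13% and 3.55%) is below that of the flanks.

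Coverage around facing starts was similar on both sides. At 1000 bp to the left and right of the midpoint, 70.1% and 69.7% of pairs were covered in the dDAVP list of experiment 1, and 22.5% and 26.2% in that of experiment 2. Tandem pairs reached their highest coverage of 65.4%, 66.1%, 52.2% and 60.7% at 500 or 600 bp from the midpoint, on the side of the gene that starts. Their facing ends lie a median of 453.5 bp apart, so part of that distance is still the gap. Facing stops showed no rise at the midpoint. In experiment 2 their coverage was lower there, at 2.13% and 3.55%, than at 5000 bp to the left (6.16% and 9.24%) and to the right (7.35% and 9.95%).

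A start that faced another start was covered more often than a start with no facing neighbour. A start here is the end of the RefSeq gene span on the side given by the strand. The start in the RefSeq promoter table lay within 100 bp of it for 12679 of 16457 genes with a strand. Both genes met this in 379 of the 565 facing-start pairs. Of 1123 starts that face a start, a peak covered 92.3%, 92.9%, 84.8% and 90.4%. Starts with no facing neighbour, 14711 in number, were covered in 44.6%, 45.2%, 33.4% and 40.6%. The difference was 49.1 ± 1.82 percentage points (SD, n = 4 libraries, same sign in 4 of 4, exact sign-flip permutation p = 0.125). Starts that face a stop lay between them, at 62.5%, 63.9%, 44.0% and 55.3% of 443. A peak over a gap this short covers both starts, so these lists do not show which of the genes a peak belongs to.

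Gene stops were covered far less often unless a start lay next to them. Of 447 stops that face a start, 53.2%, 51.5%, 28.4% and 36.9% were covered. Of 839 stops that face a stop, 17.998%, 16.1%, 2.38% and 3.22% were covered. Stops with no facing neighbour had 7.26%, 7.23%, 1.91% and 3.09% of 14941. The excess of stop-facing stops over stops with no neighbour was 10.7 and 8.86 percentage points in experiment 1 but 0.470 and 0.133 in experiment 2, so it rested on the longer lists of experiment 1.

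**Figure D2:**
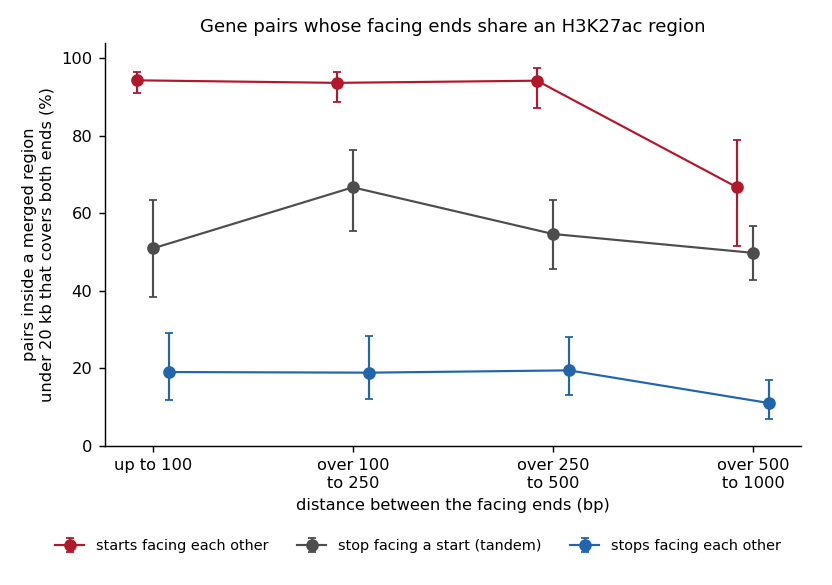
Share of gene pairs inside a facing-end region (y axis, percent) by the distance between their facing ends (x axis, 4 bins in bp) for facing starts, tandem pairs and facing stops. Points are shares over pairs and bars are 95% Wilson intervals; facing starts hold 93.6% to 94.3% up to 500 bp and 66.7% beyond.

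The share of facing starts in a region was lower only at the largest distances. The share of facing-start pairs in a region was 94.3% of 280 pairs up to 100 bp apart, 93.6% of 157 pairs over 100 and up to 250 bp, and 94.2% of 86 pairs over 250 and up to 500 bp. Over 500 and up to 1000 bp it was 66.7% of 42 pairs. The rule asks for a wider region where the gap is wider. Tandem pairs had 50.9%, 66.7%, 54.6% and 49.7% in the same bins, and facing stops 18.99%, 18.8%, 19.4% and 11.0%. At the limit itself, Pcgf2-Psmb3 (1000 bp apart, 4 lists) was inside, and Myd88-Acaa1a (1010 bp apart, 4 lists) was outside.

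Facing-end regions were called in nearly every list. Of the 1046 regions, 965 were called in all 4 lists, or 92.3% (90.5 to 93.7), beside 35.6% of all merged regions under 20 kb. Regions at a single gene end, meaning merged regions under 20 kb that overlap exactly 1 end of a protein-coding gene, reached 82.5% of 7425 (81.6 to 83.4). Within these, the share was 87.2% of 5402 at a gene start and 39.5% of 550 at a gene stop. The remaining single-end regions lie at a gene without a given strand and are left out of both classes throughout. Per list, 1041, 1040, 965 and 1010 facing-end regions were called, so every region in the shortest list was in the other lists too. A further 44 regions were missing from the dDAVP list of experiment 2 alone. Both lists of experiment 1 and neither of experiment 2 called 26 regions, or 2.49% (1.70 to 3.62), beside 16.1% of all regions. Regions at a single gene start had a similar share, 3.07% (2.65 to 3.57).

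Calling a region by a 1 bp overlap is lenient. Asking each list to fill 50% or more of the merged region left 32.9% of facing-end regions called in all 4 lists, and asking for 1 peak of each list over both facing ends left 69.9%. Per library, facing-end regions were called more often than regions at a single end by 1.92, 1.11, 9.55 and 4.56 percentage points (exact sign-flip permutation p = 0.125, n = 4 libraries). With the 50% rule the mean of that difference was 0.372 points (exact p = 0.875).

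**Figure D3:**
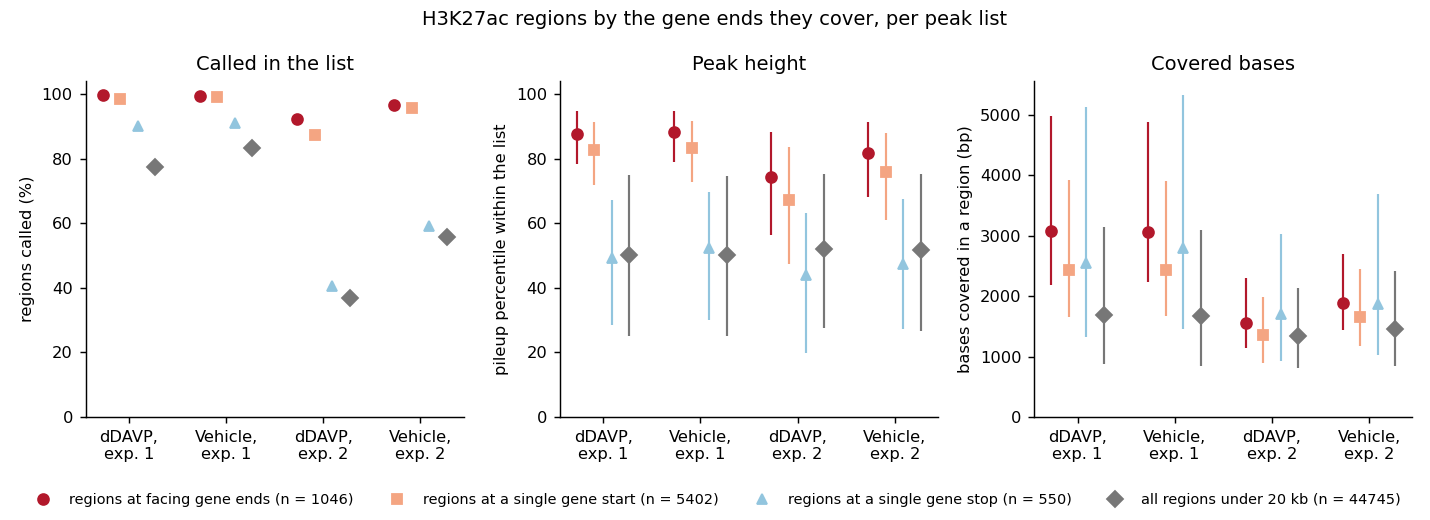
Regions called (left, percent), median pileup percentile within the list (middle) and median bases covered in a region (right, bp) in each of the 4 peak lists for 1046 facing-end regions, 5402 regions at a single gene start, 550 at a single gene stop and all 44745 regions under 20 kb. Bars span the quartiles over regions called in the list. Facing-end regions lie above single starts in pileup percentile in each list, and every class covers fewer bases in the lists of experiment 2.

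Peaks in facing-end regions were tall for their list. Pileup, the caller's mean tag coverage of a peak, was compared only within a list, as the percentile of each peak among that list's peaks. The median percentile of facing-end regions was 87.7, 88.3, 74.3 and 81.6. At a single gene end it was 80.8, 81.5, 65.4 and 74.2. The difference was 7.46 ± 0.985 percentile points (SD, n = 4 libraries, higher in 4 of 4, exact sign-flip permutation p = 0.125). It was 6.23 within strata of merged width, 5.81 against regions at a single gene start and 7.29 with fold enrichment in place of pileup, each with an exact p = 0.125.

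The regions were also wider, while at equal merged width the bases covered per list differed little and in both directions. The median merged width was 3472.5 bp for facing-end regions and 2690 bp at a single end. The rules for both classes weigh on this difference and on that in covered bases. A facing-end region has to span the gap, which had a median of 156 bp. A single-end region may reach no second gene end, while a facing-end region may hold further ends. How much of the difference the rules set was not tested. Covered bases, the summed width of a list's peaks in a region, had medians of 3075, 3057, 1550 and 1877.5 bp against 2417, 2423, 1352 and 1655 bp. The mean difference of 428 ± 252 bp (SD, n = 4 libraries, exact sign-flip permutation p = 0.125) shrank to 52.8 bp within strata of merged width (exact p = 0.75), where it was 232 and 107 bp in experiment 1 and -4.27 and -124 bp in experiment 2. In experiment 2 the peaks of a list filled 40.2% and 51.3% of the merged width of the regions they called, against 91.1% and 89.2% in experiment 1. At the width limit, Scrn2-Lrrc46 with 19803 bp was inside, and Cystm1-Pfdn1 with 20194 bp was outside.

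By orientation, 490 facing-end regions held facing starts alone, 206 tandem pairs, 45 facing stops, 266 pairs without a given strand, and 39 pairs of more than 1 kind. Regions at facing starts were the narrowest of these, with a median width of 3056.5 bp, and were called in all 4 lists in 96.3%. Tandem regions had 3719.5 bp and 92.2%. Regions at facing stops had 5542 bp and 57.8%. Pileup percentiles at facing starts were 90.2, 90.6, 75.6 and 83.1, and at tandem pairs 84.4, 84.6, 69.2 and 77.4. At facing stops they were 72.1, 72.6, 75.3 and 72.3, lowest of the 3 classes in 3 lists but level with facing starts in the dDAVP list of experiment 2, which called only 26 of the 45 regions. Facing starts exceeded single gene starts by 7.71 ± 0.553 percentile points (SD, n = 4 libraries, higher in 4 of 4, exact sign-flip permutation p = 0.125).

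How far a peak reached past the ends also differed with orientation. Where 1 peak covered both facing starts, it ran a median of 1248.5, 1251, 701 and 832 bp into either gene. The medians into the left gene were 1233, 1230, 688 and 826 bp and those into the right gene 1274, 1277, 709 and 842 bp, slightly longer on the right in 4 of 4 lists, a difference that was not tested. At a single gene start the peak ran 1461, 1446, 846 and 968 bp into the gene and 807, 808, 541 and 617 bp upstream. The reach into a gene was shorter at facing starts, with a difference of -172 ± 37.4 bp (SD, n = 4 libraries, exact sign-flip permutation p = 0.125). Peaks over tandem pairs ran 1692, 1801, 855 and 1007 bp into the gene that starts and 891, 974.5, 323.5 and 372.5 bp into the gene that stops.

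Regions at facing stops were a mixed set. Of 68 pairs of facing stops inside a region, 44 lay in a region that also holds the start of a gene. The midpoint of the gap was covered for 61, 57, 6 and 11 of the 68 pairs. For 38 pairs it was covered in both lists of experiment 1 and neither of experiment 2. A pair counts here if the merged peaks of all 4 lists cover both ends, so the longer lists of experiment 1 weigh on which pairs entered. With regions merged from 1 experiment alone, the mean share of midpoints covered was 86.8% in experiment 1 and 83.3% in experiment 2. These shares are largely set by the rule, since a pair enters only if peaks of the same lists cover both ends. Far fewer pairs met that in experiment 2. Of all 422 pairs of facing stops, 1 peak covered both ends for 69, 60, 9 and 11. Only 5 pairs were covered at the midpoint in all 4 lists, against 472 of 520 at facing starts. These 5 were named after their values were seen: Muc1-Trim46, H2ac21-H2ac20 and Pgp-Mlst8, in regions that also hold a gene start, and Hrc-Ppfia3 and Engase-Rbfox3, in regions with no start of a gene of known strand. Muc1 encodes an epithelial mucin, and its region (15758 bp) had pileup percentiles of 92.8, 94.8, 90.0 and 92.4.

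Of 40 well-known neighbour pairs looked up by name, 16 lay within 1 kb without overlap, 14 overlapped in span and so fell outside the rule, 4 lay farther apart, and 6 were not both in the table under these names. A facing-end region covered 15 of the 16, each called in all 4 lists. The exception, Rpl7a-Surf1, is a pair of facing stops. Most of the 15 have facing starts, and of all facing-start pairs 92.04% lay in such a region, beside 55.5% of all facing pairs. Of all facing-end regions, 92.3% were called in all 4 lists, so these known pairs lay near the share of their class.

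Several of these pairs were listed for their genes of DNA repair and replication. The region of Mcm4, a subunit of the replicative helicase, and Prkdc, the catalytic subunit of DNA-dependent protein kinase, lies at chr16:15634584-15638964, with ends 44 bp apart. It had pileup percentiles of 99.4, 99.1, 99.1 and 99.4 and covered 3504, 4335, 2030 and 2469 bp. Each of the 4 lists therefore placed it among its tallest peaks.
Brca1, which acts in homologous recombination, and Nbr1, an autophagy receptor, shared a region of 3495 bp at chr11:101550597-101554091. Its percentiles were 99.5, 99.3, 97.6 and 98.2, and its covered bases 3333, 3447, 2479 and 3033. The region reaches more than 1 kb to either side of the sequence shown above.
Trp53, the p53 tumour suppressor, and Wrap53, a telomerase component, shared a wider region of 6930 bp at chr11:69576256-69583185, with percentiles of 97.0, 96.2, 89.2 and 96.2. Rad51c, a recombinase paralogue, and Tex14, a gene of germ-cell bridges, shared a narrow one of 1351 bp with percentiles of 95.5, 92.1, 92.3 and 94.3. Its covered bases of 1314, 1253, 1304 and 1329 differed little between experiments, unlike the medians over all facing-end regions.
Atm, a DNA damage kinase, and Npat, an activator of histone gene transcription, had percentiles of 93.8, 94.7, 67.1 and 75.1. Aimp2, a scaffold of the tRNA synthetase complex, and Pms2, a mismatch repair protein, had 90.4, 90.0, 82.8 and 82.5.

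Other known pairs covered a wide range of heights. Hnrnpa2b1, an RNA-binding protein, and Cbx3, a heterochromatin protein, had percentiles of 98.9, 98.3, 98.9 and 99.2. Gart, a purine synthesis enzyme, and Son, a splicing factor, had 98.1, 99.3, 96.4 and 98.2 although their starts lie 852 bp apart. Ranbp1, a regulator of the Ran GTPase, and Trmt2a, a tRNA methyltransferase, had 94.6, 95.1, 98.3 and 97.8.
The lowest of the known pairs was Psmb9-Tap1, both genes of antigen processing, with 86.7, 87.9, 49.2 and 60.1. Sirt3-Psmd13 (78.7, 82.0, 50.7 and 76.5) and Smtnl1-Timm10 (84.4, 81.5, 50.5 and 71.7) were close to it. Tsc2, a brake on mTOR signalling, and Nthl1, a DNA glycosylase, start 4 bp apart, and their percentiles of 93.5, 95.3, 43.4 and 62.2 were high in experiment 1 but near the middle of the list in experiment 2.

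Among the 965 regions called in all 4 lists, the 5 with the highest mean percentile were Pan2-Cnpy2, Capza1-St7l, Mttp-Trmt10a, Zwilch-Rpl4 and Mrps18b-Ppp1r10. Pan2, a subunit of an mRNA deadenylase, and Cnpy2 form a tandem pair 800 bp apart, with percentiles of 99.9, 99.9, 99.4 and 99.8. The starts of Capza1, an actin capping protein, and St7l are 1 bp apart and had 99.9, 99.8, 99.2 and 99.4. Mttp, the microsomal triglyceride transfer protein, and Trmt10a had 99.6, 99.7, 99.3 and 99.9. At the other end of these 965 regions, Jmjd7-Pla2g4b had the lowest mean, with 36.1, 29.4, 6.27 and 21.7, and Poglut3-4930550C14Rik had 18.9, 66.0, 5.15 and 36.8. The widest facing-start region among those in all 4 lists was at Anxa5-1810062G17Rik (19103 bp), and the narrowest was at Tctn3-Entpd1 (1178 bp).

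**Figure D4:**
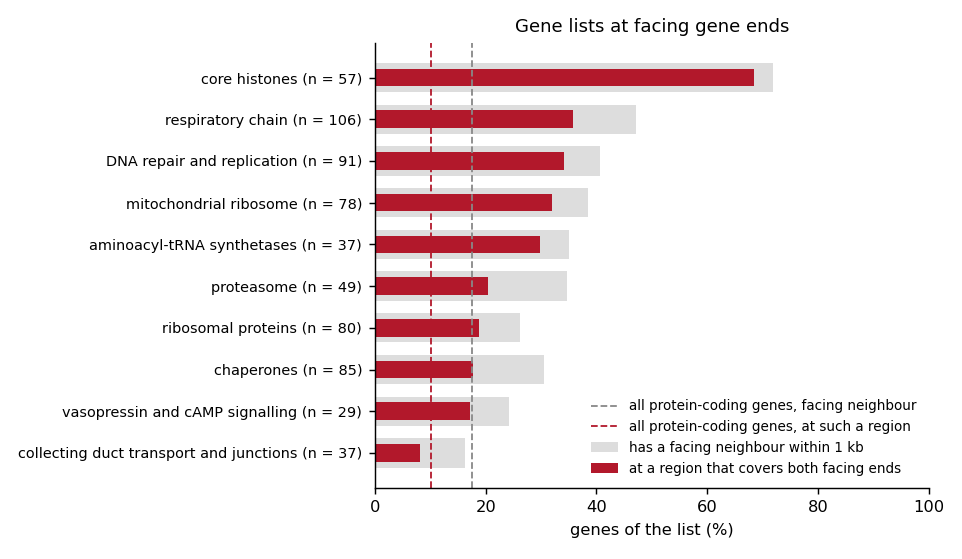
Share of the genes of each list (x axis, percent) that have a facing neighbour within 1 kb (grey bars) and that lie at a facing-end region (red bars), with dashed lines at the shares over all 20665 protein-coding genes (17.5% and 10.1%). Core histones stand highest with 68.4% at a facing-end region, and collecting duct genes lowest with 8.11%.

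Housekeeping gene lists were common at facing-end regions. Over all 20665 protein-coding genes, 17.5% had a facing neighbour and 10.1% lay at a facing-end region. For the respiratory chain the shares were 47.2% and 35.8% (38 of 106 genes), for DNA repair and replication 40.7% and 34.1% (31 of 91), for the mitochondrial ribosome 38.5% and 32.1% (25 of 78) and for aminoacyl-tRNA synthetases 35.1% and 29.7% (11 of 37). Proteasome genes had 34.7% and 20.4% (10 of 49), ribosomal proteins 26.3% and 18.8% (15 of 80) and chaperones 30.6% and 17.6% (15 of 85). Whether a gene has a facing neighbour is a matter of its position and not of acetylation, and no enrichment test was made.

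The tall examples given next are each among the 4 highest of their gene list. The percentile averaged over peak lists had a median of 81.9 over all facing-end regions. By gene list it was 81.3 for the proteasome, 82.3 for aminoacyl-tRNA synthetases, 83.7 for chaperones and 85.3 for the mitochondrial ribosome. It was 86.2 for the respiratory chain, 87.2 for DNA repair and replication and 90.2 for ribosomal proteins. Atp5md-Pdcd11, with a subunit of the mitochondrial ATP synthase, had percentiles of 99.8, 99.8, 98.5 and 99.0. Mrpl13-Mtbp, with a protein of the mitochondrial ribosome, had 99.5, 99.2, 96.6 and 98.9. Cct5-Atpsckmt, with a subunit of the TRiC chaperonin, had 99.6, 99.7, 97.6 and 98.6. Pcna, the sliding clamp of DNA replication, faces Cds2 and had 93.1, 94.95, 96.6 and 97.6. Ftsj3-Psmc5, with an ATPase of the proteasome, had 98.6, 98.4, 92.3 and 94.7, and Lyrm4-Fars2, with a mitochondrial tRNA synthetase, had 97.6, 98.8, 93.2 and 93.9.

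Core histone genes were the extreme. Of 57 genes, 39 (68.4%) lay in 16 facing-end regions with a median width of 7238 bp, and all 16 were called in all 4 lists. The tandem pair H3c13-H2bc18 on chromosome 3 had percentiles of 99.4, 99.4, 97.9 and 99.5 and covered 9058, 9267, 6439 and 6579 bp. The region of H2ac21-H2ac20, at chr3:96218356-96231889, held 3 facing pairs, the most of any region together with those of Wdr74-1700092M07Rik and Rps18-Vps52. It covered 10802, 13275, 9281 and 10582 bp. Histone genes are near-identical copies, so tags in them may have been placed at more than 1 copy or discarded.

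Of 29 genes of vasopressin and cAMP signalling, 5 (17.2%) lay at 5 facing-end regions, beside 10.1% of all protein-coding genes. Crtc2, a coactivator of CREB, lay at a region at either end of its span: Slc39a1-Crtc2 (14277 bp; percentiles 90.6, 90.0, 85.9 and 79.3) and Crtc2-Dennd4b (4927 bp; 79.6, 83.3, 79.8 and 85.4). Akap8-Akap8l, of which Akap8 encodes an anchoring protein of protein kinase A, had 95.4, 97.1, 77.9 and 88.7. Tln1-Creb3 had 77.4, 80.1, 50.5 and 70.2. Of 37 collecting duct genes, 3 (8.11%) did: Scnn1a, the alpha subunit of the epithelial sodium channel, beside Ltbr (94.9, 91.2, 84.5 and 90.0), Cldn7, a tight junction claudin, whose stop faces that of Elp5 (94.7, 93.4, 94.8 and 97.2), and Tsc2 beside Nthl1.

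The promoter windows of facing starts differed in letters from other promoters. RefSeq windows of 300 bases (250 before and 50 after the start) were read for genes whose window start lies within 100 bp of the gene end, 12679 in all. The 880 windows at facing starts in a region had a median GC content of 62.3% and a median CpG ratio, observed over expected, of 0.871. The 4320 windows at single-start regions had 60.7% and 0.774, and all windows 55.7% and 0.570. Facing windows of a pair overlap, so these are not independent sequences.

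Motif shares followed the same order for some motifs and not for others. CCGGAAG or its reverse complement was found in 31.3% of facing-start windows, 19.5% of single-start windows and 12.4% of all windows. AAGATGG was found in 12.2%, 7.36% and 6.75%. GGGCGG was found in 69.8%, 67.5% and 45.6%, and GCATGCG in 8.52%, 7.55% and 4.81%. TATAAA went the other way, with 4.66%, 6.78% and 15.2%. TGACGTCA, the cAMP response element, was found in 4.20%, 4.07% and 2.55%, and CCAAT in 44.9%, 40.6% and 40.7%. Both strands were searched, and a match is a description, not a binding site.

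The number of facing-end regions called differed less between dDAVP and vehicle than between the experiments. The counts were 1041 and 965 with dDAVP and 1040 and 1010 with vehicle, a mean of 1003 ± 53.7 against 1025 ± 21.2 (SD, n = 2 each, exact permutation p = 1, two-sided, smallest possible 0.333). Experiment 1 differed by 1 region and experiment 2 by -45, and without the dDAVP list of experiment 2 the difference of -22 turned to 16. No facing-end region had a peak in both dDAVP lists but neither vehicle list (0 of 1046, which allows a share of up to 0.287%), beside 0.0648% of all regions. In the opposite pattern there was 1 region, beside 2.51% of all regions and 0.481% of regions at a single gene start: Sesn1-Armc2, at chr10:41906406-41909328. Sesn1 encodes a p53-induced stress protein. It covered 0, 2830, 0 and 1972 bp, with percentiles of 24.2 and 39.6 in the vehicle lists.

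Covered bases, too, differed more between the experiments than between dDAVP and vehicle. The medians of 3075 and 1550 bp with dDAVP and 3057 and 1877.5 bp with vehicle gave a difference of -154.75 bp (exact permutation p = 1, n = 2 each). It turned to 439.75 bp without the vehicle list of experiment 1 and to 607.75 bp without the dDAVP list of experiment 2. The median ratio of dDAVP to vehicle per region was 1.00 in experiment 1 and 0.817 in experiment 2, where the dDAVP list as a whole covered 33.3 Mb against 56.3 Mb. Of the 965 regions called in all 4 lists, 451 (46.7%) were covered less with dDAVP in both experiments, beside 51.2% of all regions in 4 lists, and 45 (4.66%) were covered more in both, beside 4.88%. Both shares lay near the background. Without the dDAVP or the vehicle list of experiment 1, only experiment 2 is left to count, and 869 or 880 regions were lower. The part of list length in these counts was not tested.

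**Figure D5:**
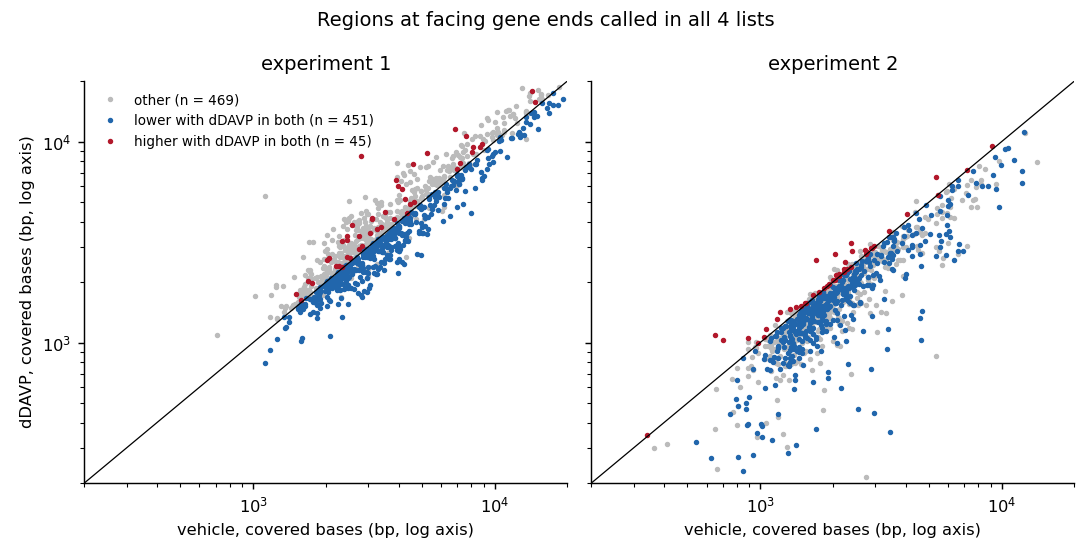
Covered bases (bp, both axes logarithmic) with dDAVP (y axis) against vehicle (x axis) in experiment 1 (left) and experiment 2 (right), with 1 point for each of the 965 facing-end regions called in all 4 lists. Blue points (451) lie under the line of equality in both panels, red points (45) above it in both, and most of the cloud sits on the line in experiment 1 and below it in experiment 2.

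Regions called in all 4 lists were ranked by their ratio of covered bases, dDAVP over vehicle: the highest by the smaller ratio of the 2 experiments where both were above 1, and the lowest by the larger ratio where both were below 1. The leading 5 each way are given without a test. Zswim1-Spata25 covered 8508 bp under dDAVP against 2789 bp under vehicle in the first experiment, then 2572 against 1705 bp. Lsm7, a subunit of the Lsm ring that binds RNA, and Sppl2b covered 3826 and 2579 bp, then 1031 and 704. Slc35b2 and Hsp90ab1, the gene of the HSP90 beta chaperone, covered 17827 and 14319 bp, then 6679 and 5337. Baiap2l2-Pla2g6 and BC029722-Eif6 completed the 5 highest.
At the other end, Lsm11, a subunit of the U7 particle that processes histone mRNA, and Thg1l covered 1078 bp with dDAVP and 2084 with vehicle, then 321 and 541. Rida-Pop1 covered 1786 and 2948, then 1061 and 2013. Engase-Rbfox3, Lrrc14-Lrrc24 and Efcab9-Stk10 were the other 3. In each of these 10 regions the ranking used both experiments, and the peaks' percentiles did not always move with the covered bases: at Zswim1-Spata25 the percentile was 52.8 with dDAVP and 91.9 with vehicle in experiment 2.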

How the data were processed

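H3K27ac ChIP-seq was done on 4 immunoprecipitated and 4 input libraries, grouped by treatment and experiment from the sample titles. The peak lists were attached to the input records, and their headers name the immunoprecipitated library. Per the file headers, the authors called each list with MACS 2.1.1.20160309 in broad mode (q limits 0.01 and 0.1) on 1 library against its own input, without pooling. The submitters' processing notes name BWA, SAMtools and the build mm10. The deposited pileup is a signal, the caller's mean tag coverage of a peak, with the larger library scaled to the smaller per the file headers. The deposited fold enrichment is the authors' ratio of pileup to local background. The deposited -log10 p and -log10 q columns had lost their names and were recognised by order and values, and they served only to filter and rank.

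With Python 3.11.15, numpy 2.4.6, pandas 2.3.3 and scipy 1.17.1, peaks were merged and gene ends (the first and last base of a RefSeq gene span) were placed in them. A list called a region with at least 1 bp of overlap. Percentiles are ranks within a list, weighted by peak width over the region. Strand came from the RefSeq promoter table for 16457 of 20665 genes. Tests were exact sign-flip tests over the 4 libraries and exact permutation tests of 2 against 2, and the scripts were tested on simulated data. The members, gene lists, motifs and the rule for named regions (known pairs, extremes of height, width and treatment ratio, and up to 4 regions per gene list) were chosen with earlier results of these data known. Titles pair the libraries by experiment: across 965 regions, the difference between experiments in log2 covered bases with dDAVP correlated with that with vehicle (r = 0.624, over regions of the same libraries). Alternatives changed the distance, width, peak filter, call rule and comparison group, and left out each library.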

Additional observations from a re-analysis of the deposited data

Results flagged for a closer look

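Chromosome X lies outside the rule, and the comparisons above do not use it. It has 44 facing pairs, and the same steps found 17 facing-end regions, which did not cover every pair. On chromosomes 1 to 19 there were 1046 regions for 2014 facing pairs. Of the 17 regions, 14 were called in all 4 lists, beside 92.3% on chromosomes 1 to 19. They include Cetn2-Nsdhl, Idh3g-Ssr4, Gla-Hnrnph2 and Pqbp1-Timm17b, named after the values were seen.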

How the results depend on the processing

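The pileup percentile difference between facing-end and single-end regions was positive in 16 of 16 other settings, as was the covered-base difference in 15 of 15, and the number of regions stayed within 1.5 times of 1046 in 12 of 12. The percent called in all lists moved from 92.3% to 83.5% with a -log10 q of at least 5, 94.8% with lists of equal length (19838 peaks), 32.9% with 50% of a region covered, 69.9% with 1 peak over both ends, and, in settings added after seeing the data, 98.9% in both lists of experiment 1 and 97.4% in both of experiment 2. Leaving out 1 library gave 92.2% to 96.5%. In experiment 2 alone the width difference was 164 bp against 782.5 bp, and the gap between facing starts and facing stops was 86.7 against 75.9 percentage points. Regions in both lists of 1 treatment alone numbered 5 with the q filter, 2 with equal lists, 2 with 50% covered and 3 with 1 peak over both ends, against 1. Without 1 library, the dDAVP minus vehicle difference ran from -55.5 to 16 regions (16 without dDAVP replicate 2) and from -916 to 607.75 bp (439.75 without vehicle replicate 1, 607.75 without dDAVP replicate 2), and regions lower with dDAVP from 483 to 880. The cause of these moves was not tested, except that fewer libraries leave 1 experiment to count. With the replicate block the differences of -22 regions and -154.75 bp had an exact p of 1 (smallest possible 0.5) and no call changed. The lists did not follow the order of depth: dDAVP replicate 1 kept the fewest immunoprecipitated tags (27923780) and had 36750 peaks, and dDAVP replicate 2 kept 31676748 and had 19838.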

Other observations

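Facing starts with no peak over either end of the gene spans were few. Neither end was in a merged region for 36 of 565 facing-start pairs, and the examples here were named after their values were seen. A peak at another start of these genes would not count. Both starts of the promoter table lay within 100 bp of the span ends in 379 of the 565 pairs. They include pairs with broadly used genes, such as Ctnnd1-Btbd18, with p120 catenin of cell junctions, Rnf123-Mst1, Lrrc42-Hspb11, Ushbp1-Babam1, Dusp3-Cfap97d1 and AU022252-P3h1. Others hold genes known from particular tissues, such as Kirrel2-Nphs1, of which Nphs1 encodes nephrin of the podocyte slit diaphragm, Duox2-Duoxa2, a dual oxidase and its maturation factor known from the thyroid, Smc1b-Ribc2, with a meiotic cohesin subunit, and H2bc1-H2ac1, histone genes known from the testis. Bhmt2-Dmgdh, enzymes of methyl-group metabolism known from liver, also had neither end in a region. The same held for Mup19-Mup-ps16 and Olfr181-Olfr183, from the major urinary protein and odorant receptor families. The limit on placing tags given for histone genes was not checked for these families. The 48 promoter windows of such pairs had a median CpG ratio of 0.610, close to the 0.570 of all windows and below the 0.871 at facing starts in a region. CCGGAAG was found in 2.08% of them and TATAAA in 16.7%, and CCAAT in 62.5%.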
